A study of Mus musculus with 2 samples.

Results

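The Chd genes encode the chromodomain helicase DNA-binding proteins, ATP-driven enzymes that slide, space or evict nucleosomes. All 9 members, Chd1 to Chd9, were found by symbol among the 32285 genes of the deposited gene list, and each matched 1 row. They were read in 2 single-cell RNA libraries from microdissected lobules III-IV of the cerebellum of mice of the strain B6.129S2-Cxcr4tm1.1Bala at postnatal day 1, one from the Cxcr4+/+ genotype, called control here, and one from Cxcr4+/1013, called mutant. The 1013 allele encodes a CXCR4 chemokine receptor with a truncated C-terminal tail and was heterozygous, while the control carried no mutant allele. The labels do not say how many animals a library holds. With 1 library per genotype there was no replicate and no test, so each difference between genotypes is one between 2 libraries, and the 95% intervals given below cover counting error only.

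Each member carries a pair of chromodomains in front of an SNF2-type ATPase motor. Chd1 and Chd2 act at open, transcribed chromatin. Chd3, Chd4 and Chd5 are the alternative motor subunits of the NuRD complex, which joins nucleosome remodelling to histone deacetylation, and Chd4 is the general form while Chd5 is known from neurons. Chd6, Chd7, Chd8 and Chd9 form the remaining subfamily. Loss of one copy of CHD7 causes CHARGE syndrome in humans, and in mice Chd7 is needed in granule cell progenitors for a cerebellum of normal size. CHD8 and CHD2 are known from autism and epilepsy.

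The motor of every member holds a short stretch of the amino acids D, E, A and H, the DEAH box. The coding sequences around it are shown for 5 members on which the results turn, 1 stretch of 60 bases each from the coding strand 5′ to 3′, with the 12 bases that encode the DEAH box in capitals. The sequences are from GENCODE M21 transcripts of the GRCm38 (mm10) build.
Chd1: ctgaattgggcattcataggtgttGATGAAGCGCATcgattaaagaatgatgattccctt
Chd3: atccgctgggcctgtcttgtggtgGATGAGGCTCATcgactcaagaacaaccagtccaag
Chd4: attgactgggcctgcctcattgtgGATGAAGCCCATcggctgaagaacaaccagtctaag
Chd5: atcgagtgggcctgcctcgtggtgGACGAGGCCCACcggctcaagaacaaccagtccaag
Chd7: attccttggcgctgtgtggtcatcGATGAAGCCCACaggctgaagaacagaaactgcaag
Over these 60 bases Chd3 and Chd5 had 51 bases in common, Chd4 and Chd5 51, and Chd3 and Chd4 48, while Chd1 shared 35 with Chd3 and 29 with Chd7. The 3 NuRD motors are the closest set, yet the longest identical stretch in their whole transcripts was 35 bases (Chd3 and Chd4). In the last 1000 bases of the transcripts, where 3′ libraries place most reads, no pair of members shared more than 15. Reads of ordinary length from these ends can thus be told apart by sequence.

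The members lie apart in the genome. In GRCm38, Chd3 is at chr11:69343273-69369406 on the minus strand and Chd4 at chr6:125095981-125130591, Chd5 at chr4:152338651-152390194 and Chd7 at chr4:8690406-8867659, all 3 on the plus strand. Gene length ran from 26.1 kb for Chd3 to 226.2 kb for Chd9, with 36 to 42 exons in the transcripts used. Annotated genes overlap some members on the same strand: 4 overlap Chd2, 2 overlap Chd9 and 2 overlap Chd4, 1 each overlaps Chd3 and Chd8, and none overlaps Chd1, Chd5, Chd6 or Chd7. Reads in those overlaps may be split or dropped, so that the level of Chd2 is uncertain in this respect.

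Barcodes with at least 500 genes and at most 10% mitochondrial UMIs (unique molecular identifiers, 1 per captured transcript) were kept. This left 8353 control cells with 114764187 UMIs and 8194 mutant cells with 126145234 UMIs, at a median of 12101 and 13557.5 UMIs per cell. The libraries shared 25 barcodes by sequence. Cells were placed in classes by the number of fixed marker genes with a UMI, which took in 70.9% of control and 78.9% of mutant cells. Of the 17 classes, 14 held at least 50 cells in both libraries and are described here. The cells without a class were shallower in the control library, at a median of 2638 UMIs against 6540 in the mutant. Cells with female expression of sex-linked genes made up 45.9% of the control and 42.1% of the mutant library, and cells with male expression 34.0% and 42.8%, so each library held animals of both sexes in different proportions. RNA that escapes from broken cells was read from Purkinje markers: in the other 13 classes described here Calb1 stood at 0.391% to 1.44% of its Purkinje level and Pcp2 at 0.274% to 1.18%. Car8 reached 5.35% in the control oligodendrocyte lineage and Skor2 4.72% in control microglia, so no single share holds for all markers. Levels below are UMIs per 1000000 UMIs of the class (CPM), and they compare classes for 1 gene, not genes with one another.

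The members differed in how much their level changed with cell class. Chd5, Chd3 and Chd7 varied most, with an SD over the classes of 1.75, 1.18 and 1.07 for log2(CPM + 1), which was larger than that of 94.3%, 78.3% and 73.2% of 13389 genes. Chd8 varied least: its SD of 0.233 exceeded that of only 3.06% of genes. Chd2 (0.28), Chd4 (0.306) and Chd6 (0.309) also had small SDs, and Chd1 (0.426) and Chd9 (0.487) lay between. Counted by pairs of classes whose intervals did not overlap in the same direction in both libraries, 80 of 91 pairs stood apart for Chd7, 70 for Chd3, 61 for Chd5, 53 for Chd9, 52 for Chd4, 51 for Chd2, 44 for Chd6, 42 for Chd1 and 11 for Chd8.

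**Figure D1:**
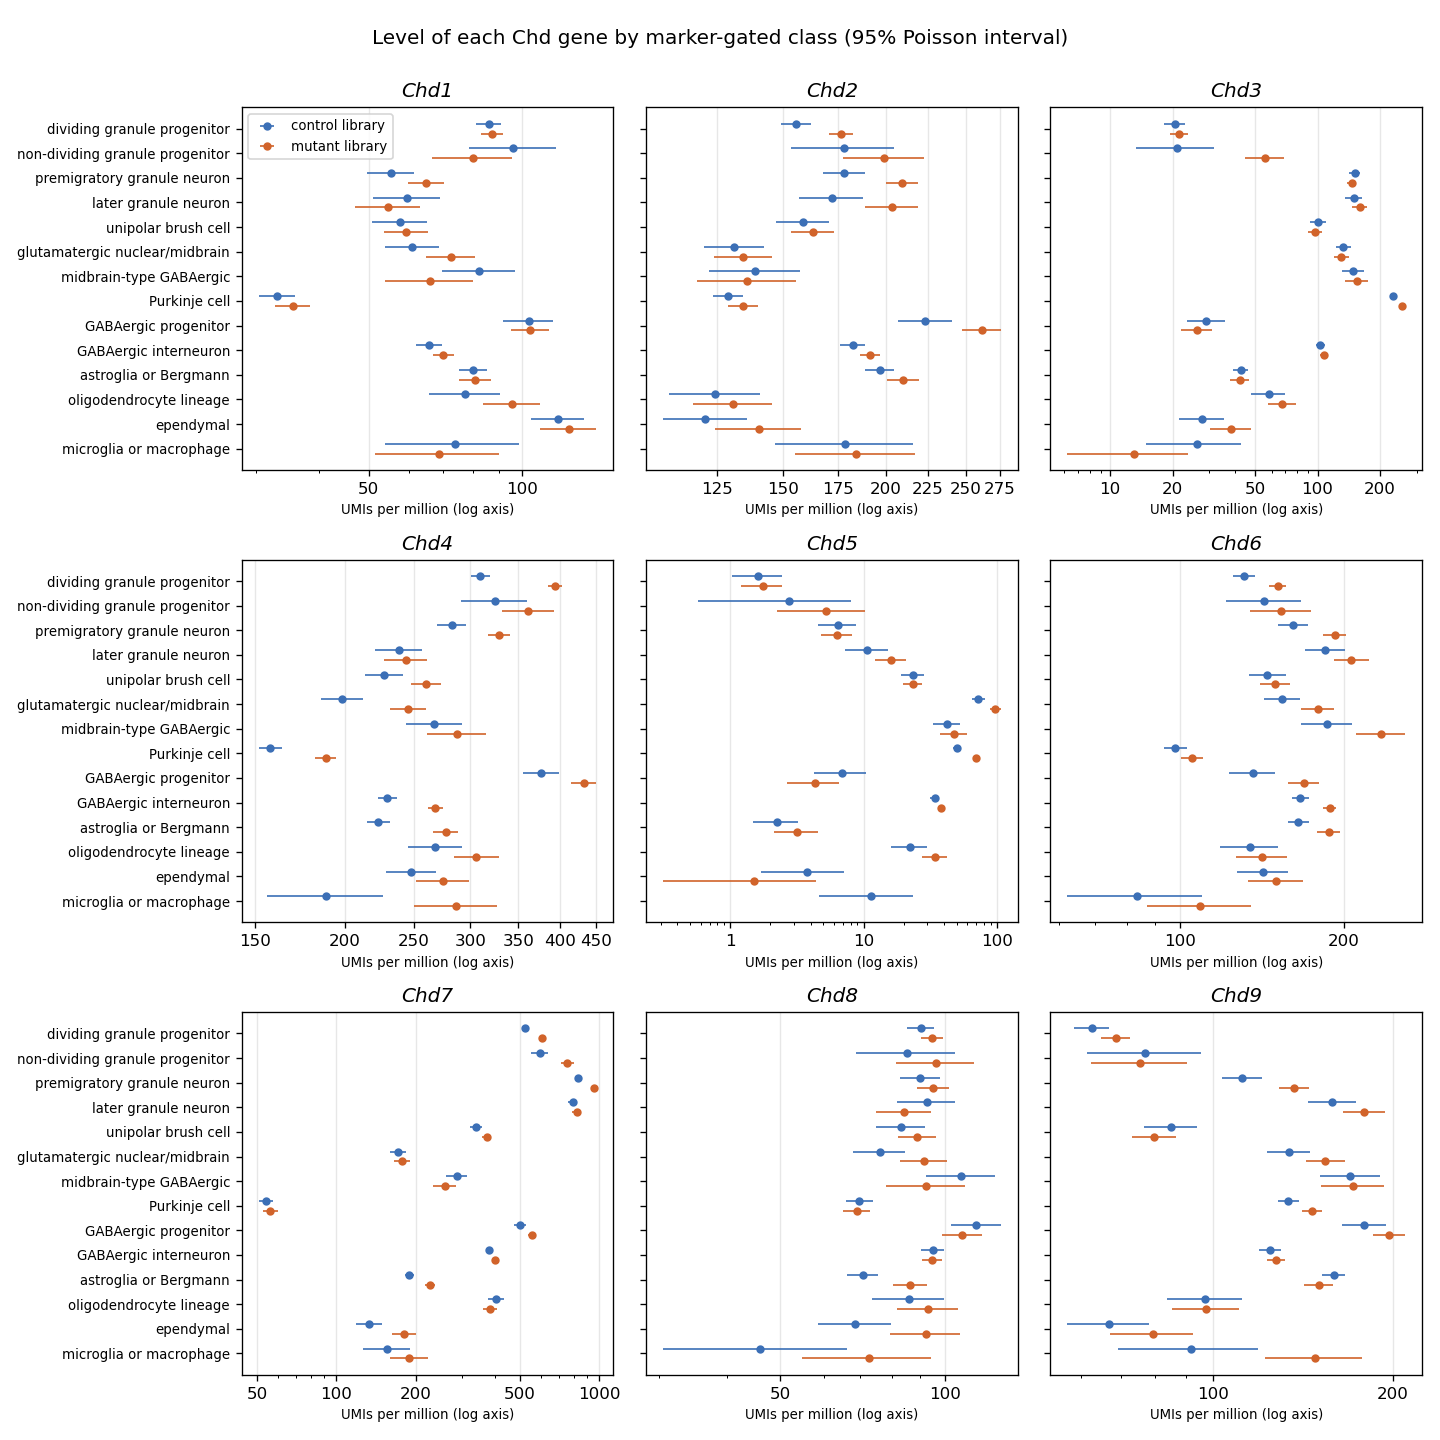
Level of each Chd gene in CPM (log axis, scale differs between panels) in the 14 marker-gated classes, control library in blue and mutant library in orange, with 95% Poisson intervals. Chd7 is lowest in Purkinje cells and highest in granule neurons, Chd3 is highest in Purkinje cells, and Chd8 stays within a narrow range; Chd5 in mutant microglia, at 0 UMIs, is not drawn.

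Chd7 was highest in the granule lineage. Its level was 520.7 CPM in dividing granule cell progenitors of the control library and 604.1 in the mutant, and 592.8 and 754.7 in non-dividing progenitors. It was highest in premigratory granule neurons, at 833.0 and 955.0 CPM, and stayed high in later granule neurons, at 792.3 and 820.3. GABAergic progenitors, the cells that give rise to inhibitory neurons, followed with 500.3 and 555.7. The 2 granule neuron classes did not stand apart from each other, and neither did dividing progenitors from GABAergic progenitors.
Chd7 was intermediate in the oligodendrocyte lineage (404.8 and 384.2 CPM), GABAergic interneurons (380.5 and 401.0) and unipolar brush cells (339.4 and 373.2). It was low in astroglia or Bergmann glia (189.4 and 227.0), glutamatergic nuclear or midbrain neurons (171.5 and 177.4) and ependymal cells (133.4 and 181.0), and lowest in Purkinje cells, at 53.99 and 56.10. The highest class exceeded the lowest 15.4-fold in the control library and 17-fold in the mutant. After each cell was thinned to 5000 UMIs, 97.8% of control and 98.1% of mutant premigratory granule neurons had a Chd7 UMI (99.2% and 98.9% unthinned), against 17.1% and 16.0% of Purkinje cells (45.6% and 46.8% unthinned). Before thinning the median depths of these classes were 11450 and 12469 UMIs, and 35526 and 36641.5. Thinning left out 20 and 61 premigratory neurons and 32 and 11 Purkinje cells that were shallower.

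The low Chd7 level in Purkinje cells moved with the choice of cells. With the highest doublet scores removed it was 29.6 CPM in the control library and 30.7 in the mutant. In Purkinje clusters named by the same markers, from which those cells were also removed, it was 24.1 and 20.2. Reln and Neurod1, both granule neuron genes, moved in the same direction: Reln went from 39.2 and 37.6 CPM in the gate to 13.9 and 9.27 in the clusters, and Neurod1 from 22.9 and 25.7 to 5.88 and 5.29. With a limit of 5% mitochondrial UMIs only 79 control and 64 mutant Purkinje cells remained of 518 and 498, with Chd7 at 196 and 198 CPM and Reln at 116 and 141. The Purkinje gate as a whole had a median of 7.34% and 7.16% mitochondrial UMIs. The part of other cells' RNA in these levels was not tested.

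Chd3 and Chd5, the NuRD motors linked to mature neurons, were lower in progenitors and astroglia than in most neurons. Chd3 was 20.56 CPM in dividing granule progenitors of the control library and 21.57 in the mutant, and 29.10 and 26.11 in GABAergic progenitors. It reached 150.8 and 145.8 in premigratory granule neurons, 149.5 and 160.1 in later granule neurons, and 229.9 and 256.6 in Purkinje cells, its highest class. Interneurons had 103.3 and 107.1 CPM, unipolar brush cells 100.7 and 96.76, and astroglia 42.64 and 42.18. Purkinje cells stood apart from the next class in both libraries, whereas later granule, premigratory granule and midbrain-type GABAergic neurons did not stand apart from one another.
In thinned cells, 8.85% of control and 7.76% of mutant dividing granule progenitors had a Chd3 UMI (24.8% and 27.9% unthinned), against 52.1% and 47.6% of premigratory granule neurons (73.6% and 74.5% unthinned).

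Chd5 was highest in the glutamatergic nuclear or midbrain neurons, a class gated on 8 markers such as Lhx9, Meis2 and Slc17a6, at 72.52 CPM in the control library and 97.77 in the mutant. Purkinje cells followed with 50.05 and 70.43, midbrain-type GABAergic neurons with 42.31 and 47.89 and interneurons with 34.19 and 38.46. In the granule lineage Chd5 went from 1.625 and 1.753 CPM in dividing progenitors to 6.398 and 6.376 in premigratory and 10.68 and 16.10 in later neurons. Granule neurons had the lowest Chd5 values of the neuronal classes, although later granule neurons did not stand apart from unipolar brush cells (23.49 and 23.41). Oligodendrocyte lineage cells carried 22.24 and 34.16 CPM, while astroglia had 2.240 and 3.174. In thinned cells 22.8% and 28.5% of Purkinje cells had a Chd5 UMI (75.5% and 83.5% unthinned), and 0.796% and 1.19% of astroglia did (2.98% and 3.78% unthinned), at median depths before thinning of 13877.5 and 15219 UMIs in astroglia. In CPM, astroglia had 4.48% and 4.51% of the Purkinje level of Chd5, and the part of escaped RNA in this was not tested.

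Chd4, the general NuRD motor, had another order. It was highest in GABAergic progenitors, at 376.7 CPM in the control library and 432.0 in the mutant, and in dividing granule progenitors, at 309.7 and 394.3. Levels in the granule neurons were 282.5 and 328.9 (premigratory) and 238.4 and 243.4 (later), and Purkinje cells were lowest at 157.4 and 188.2. Chd1, a remodeller of transcribed chromatin, had ependymal cells first (117.6 and 123.6), then GABAergic progenitors (103.0 and 103.9), non-dividing (96.20 and 80.02) and dividing granule progenitors (86.00 and 87.39), and Purkinje cells last (33.06 and 35.47). Over 28 points, the 14 classes in each of the 2 libraries, log2 levels of Chd3 correlated with those of Chd5 (Pearson r = 0.80) and ran against those of Chd1 (r = -0.73) and Chd4 (r = -0.51), and Chd4 correlated with Chd7 (r = 0.70). The points share libraries, cell classes and the totals they were scaled to, so these are descriptions.

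The remaining members had shallower patterns. Chd9 was lowest in dividing granule progenitors (62.61 and 68.69 CPM) and highest in GABAergic progenitors (178.9 and 197.2), with later granule neurons at 158.1 and 179.1 and astroglia at 159.4 and 150.2. Chd2 was also highest in GABAergic progenitors (223.3 and 261.1) and ended with the oligodendrocyte lineage at 124.3 and 130.6. Chd6 was highest in midbrain-type GABAergic neurons (186.2 and 233.6) and low in Purkinje cells (98.21 and 105.3). Chd8 ranged over the neural classes from 68.56 in control ependymal cells to 114.1 in control GABAergic progenitors, and in no case did neighbouring classes in its order stand apart.

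Granule cell differentiation was read from dividing progenitors to neurons, across gates that differ in their markers by construction. From dividing progenitors to premigratory neurons 4 of the 9 members were at least 1.5-fold higher in both libraries (Chd3, Chd5, Chd7 and Chd9; 25.0% of 13742 genes were) and none was at least 1.5-fold lower (23.7% of genes were). Chd3 was 7.33-fold higher in the control (interval 6.42 to 8.39) and 6.76-fold in the mutant library (6.04 to 7.57). Chd5 was 3.94-fold (2.29 to 6.90) and 3.64-fold higher (2.33 to 5.77), on 39 and 57 UMIs in premigratory neurons. Chd9 was 1.79-fold and 1.99-fold higher, and Chd7 1.60-fold and 1.58-fold. Chd1 was lower, at 0.643 and 0.742 of its level in dividing progenitors, and Chd4 at 0.912 and 0.834. The small fall of Chd4 was absent between clusters named by the same markers, where the log2 fold was 0.01 and -0.02. Chd8 had the same level in both classes, at 0.999 (0.902 to 1.10) and 1.0 times (0.921 to 1.09).

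Between premigratory and later granule neurons, 1 of 9 members, Chd5, was at least 1.5-fold higher in both libraries (4.85% of genes were) and none was lower by that size (3.23% of genes were). From dividing to non-dividing progenitors 1 member was higher by that size, again Chd5, on 3 and 8 UMIs only (8.11% of genes were), and none lower (6.96% of genes were). The non-dividing gate is small, with 85 and 102 cells, and Atoh1, its entry marker, was at 186 CPM in the control and 157 in the mutant.

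**Figure D2:**
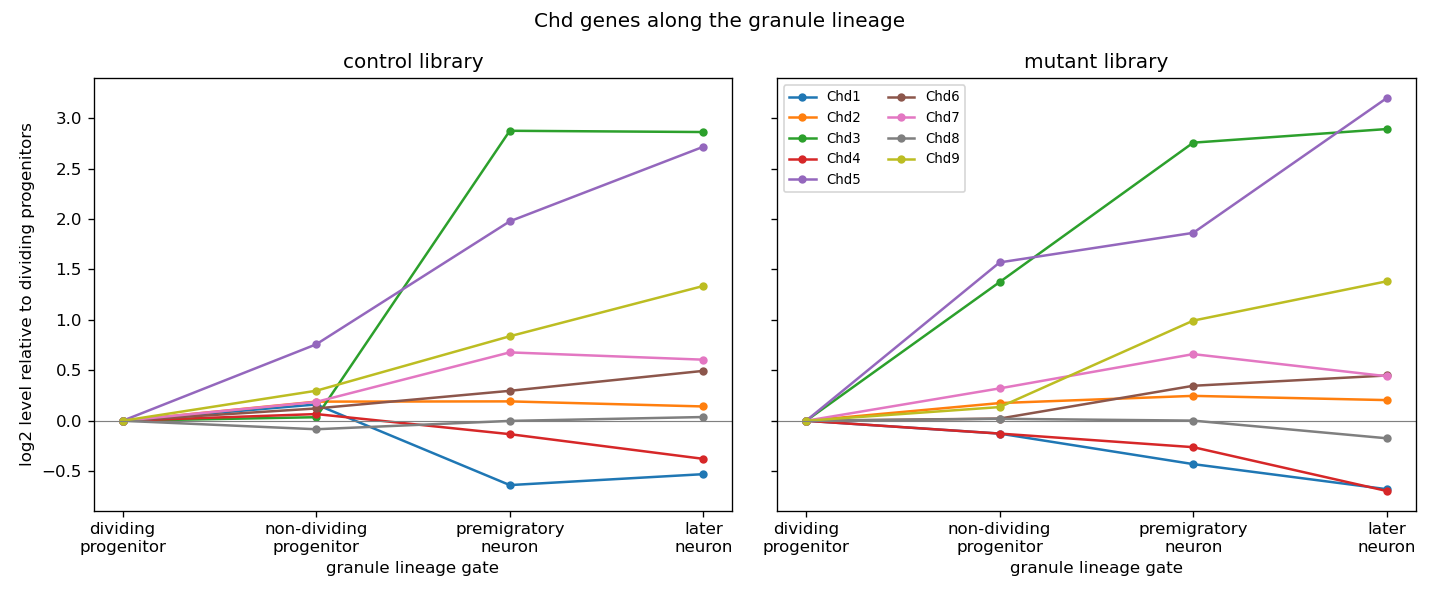
Level of each Chd gene in 4 granule lineage gates on the log2 scale relative to dividing progenitors, control library on the left and mutant library on the right. Chd3 and Chd5 end highest in both panels, Chd9 and Chd7 are moderately higher in neurons, Chd8 stays near 0, and Chd1 and Chd4 end below 0; the non-dividing gate is the one where Chd3 differs between the panels.

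Other remodelling genes were read across the same step, where 25.0% of all genes were at least 1.5-fold higher in both libraries and 23.7% lower. Of 13 counted NuRD partners, 1 was at least 1.5-fold higher in premigratory neurons in both libraries (Zmynd8) and 6 were lower. Among the 6 were Hdac1, a deacetylase, from 69.3 to 31.2 CPM (control) and from 75.8 to 36.1 (mutant), and Rbbp4, a histone-binding subunit, from 439 to 213 and 436 to 209. Hdac2, another deacetylase of the list, was not among the genes past that size in either direction. The median log2 fold of the NuRD partners was -0.60 in the control library and -0.70 in the mutant, against 0.03 and 0.02 over all genes. Of 28 subunits of the SWI/SNF (BAF) complex, 6 were higher and 9 lower, not far from the shares over all genes. Actl6b, the actin-related subunit of neuronal BAF, was 7.12-fold and 6.68-fold higher, while Actl6a, its counterpart in progenitors, was at 0.343 and 0.338 of its progenitor level. Ss18l1 was 2.62-fold and 2.6-fold higher and Ss18, which it replaces in neurons, at 0.469 and 0.547. Exchange of these BAF subunits is known from neurons at large, and Chd3 and Chd5 were higher across the same pair of classes.
Among 11 ISWI genes 2 were higher, Baz2a and the neuronal motor Smarca1 (5.40-fold and 4.44-fold), and 4 lower, among them the motor Smarca5, at 0.475 and 0.450. Of 14 other SNF2-type ATPases 6 were lower and none higher, led by Hells, a remodeller of replicating cells, at 0.0846 and 0.0804. In the INO80, SRCAP and EP400 family 3 of 17 were lower and in the trithorax-type methyltransferase core 3 of 12, near the share of all genes that were lower, and none was higher in either. Reln, which Chd7 is known to activate in granule progenitors, was 3.30-fold and 3.42-fold higher in premigratory neurons, but Reln is itself one of the granule neuron markers of the gate.

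The inhibitory lineage was compared next. Between GABAergic progenitors and interneurons, Chd3 and Chd5 were at least 1.5-fold higher in both libraries, 2 of 9 members (21.8% of 14820 genes were), and Chd4 was at least 1.5-fold lower, 1 of 9 (18.3% of genes were). Chd3 was 3.55-fold higher in the control (2.87 to 4.44) and 4.10-fold in the mutant (3.45 to 4.92), and Chd5 4.98-fold and 8.97-fold, on 21 and 22 UMIs in progenitors. Chd4 was at 0.609 of its progenitor level in the control (0.571 to 0.651) and 0.620 in the mutant (0.591 to 0.651). Chd7 was at 0.761 and 0.722, so that it was lower in interneurons than in their progenitors, whereas in the granule lineage it was higher in the neurons. Chd9 was likewise at 0.695 and 0.647, against 1.79-fold and 1.99-fold higher in granule neurons. Whether the 2 lineages differ in this was not tested, since each had 1 library per genotype, but the intervals of the 2 folds did not overlap in either library.

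Within the interneuron class, cells with Sst, a neuropeptide gene, and no Pax2 UMI were set beside cells with Pax2, the transcription factor of interneuron precursors, and no Sst UMI. Of the 9 members, 2 were at least 1.5-fold higher in the Sst-positive cells in both libraries (Chd3 and Chd5; 14.5% of 12686 genes were), and 2 were at least 1.5-fold lower (Chd1 and Chd4; 15.7% of genes were). Chd3 went from 76.30 CPM in Pax2-positive cells of the control library to 182.3 in Sst-positive cells, and from 78.13 to 164.5 in the mutant. Chd5 went from 14.21 to 54.39 and from 17.42 to 64.86. Chd4 went from 280.2 to 144.1 and from 322.8 to 165.8, so that 0.514 of its level was left in each library. Chd7 was at 0.630 and 0.692, and Chd9 at 0.976 and 0.876, with both intervals reaching 1. The Sst-positive set held 89 and 93 cells and the Pax2-positive set 585 and 850. Cells with UMIs of both genes, 488 and 610, were left out of these folds, so most cells with Sst were not in the Sst-positive set. In cells with both, Chd3 was at 107.6 and 123.6 CPM, Chd5 at 46.51 and 55.34, Chd4 at 206.0 and 232.3 and Chd1 at 63.09 and 58.14. Each of these levels lay between those of the compared sets.

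**Figure D3:**
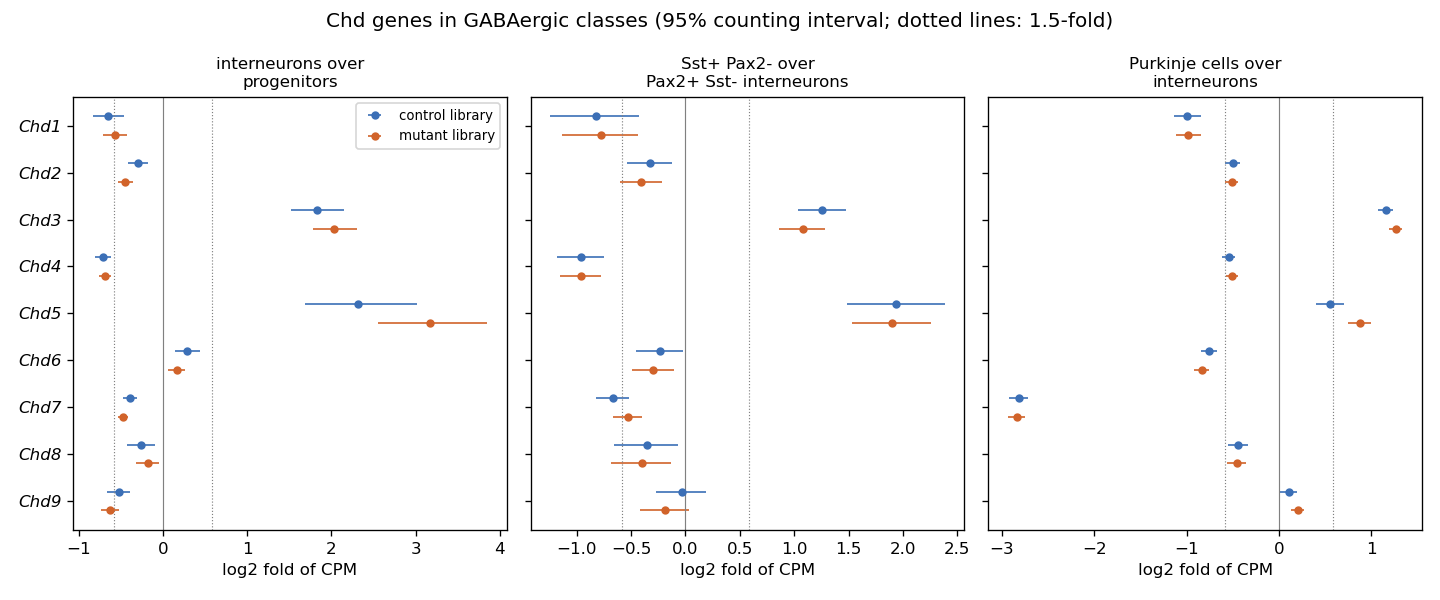
Log2 fold of CPM for the 9 Chd genes, with 95% counting intervals and dotted lines at 1.5-fold. The panels set interneurons over GABAergic progenitors, Sst-positive Pax2-negative over Pax2-positive Sst-negative interneurons, and Purkinje cells over interneurons. Chd3 and Chd5 lie to the right in all 3 panels, Chd1 and Chd4 lie to the left, and Chd7 is far to the left in Purkinje cells only.

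Dividing and non-dividing cells were also compared within 2 other classes. Among GABAergic progenitors, 100 dividing cells of the control library had Chd7 at 445.7 CPM against 598.6 in 67 non-dividing cells, and in the mutant 518.1 in 166 against 702.0 in 74, which gives 0.745 (0.666 to 0.833) and 0.738 (0.677 to 0.805). No member was at least 1.5-fold higher in the dividing cells in both libraries (8.01% of 10306 genes were), and 0 of 9 were lower by that size in both (8.62% of genes were). Chd4 was at 1.16 (1.02 to 1.33) and 1.07 (0.957 to 1.19). Among astroglia 0 of 9 members differed by that size in either direction in both libraries, against 7.61% of 12880 genes higher and 7.96% lower. Chd9 was lower in dividing astroglia, at 0.847 (0.766 to 0.937) and 0.773 (0.679 to 0.878), and Chd7 was at 1.07 and 1.12. Chd7 was thus lower in dividing GABAergic progenitors, while its interval lay above 1 in dividing astroglia of the mutant library only (0.98 to 1.17 and 1.01 to 1.24), and the difference between the classes was not tested.
Astroglia with Aqp4, an astrocyte water channel, and no Gdf10 UMI were set beside those with Gdf10, a Bergmann glia gene, and no Aqp4 UMI. Of the 9 members, 0 were at least 1.5-fold higher in both libraries (8.53% of 9481 genes were) and 1, Chd3, was lower (4.60% of genes were). Chd3 was at 25.23 CPM against 52.89 in the control and 25.19 against 44.36 in the mutant, on sets of 61 to 111 cells.

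Purkinje cells and later granule neurons are both postmitotic, and they differed in 5 members by at least 1.5-fold in both libraries. Chd3 (1.54-fold and 1.60-fold) and Chd5 (4.69-fold and 4.38-fold) were higher in Purkinje cells, 2 of 9 (21.6% of 14053 genes were), and Chd1 (0.555 and 0.650), Chd6 (0.531 and 0.510) and Chd7 (0.0682 and 0.0684) were lower, 3 of 9 (21.5% of genes were). With a limit of 5% mitochondrial UMIs, which kept few Purkinje cells, the log2 fold of Chd1 turned to 0.11 in the mutant library. Against interneurons, Purkinje cells had 1 member at least 1.5-fold higher in both libraries (Chd3; 15.7% of 15790 genes were) and 3 lower (Chd1, Chd6 and Chd7; 29.0% of genes were). Unipolar brush cells, the excitatory interneurons of the rhombic lip, had 2 members at least 1.5-fold above dividing granule progenitors (Chd3 and Chd5; 26.7% of 13785 genes) and 1 below (Chd7; 25.2% of genes). In the oligodendrocyte lineage 2 members were at least 1.5-fold above astroglia (Chd5 and Chd7; 13.4% of 13882 genes) and 2 below (Chd2 and Chd9; 20.8% of genes).

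For each member the 3 genes with the most similar pattern over the 28 points were named among 11931 genes. They were Pja2 (r = 0.961), Hk1 (0.944) and Scn2a (0.937) for Chd3, Pianp (0.943), Psd (0.938) and Jakmip3 (0.935) for Chd5, and Smarca5 (0.894), Cecr2 (0.884) and Arid2 (0.882) for Chd4. Those 3 for Chd4 all belong to other remodelling complexes: Smarca5 is an ISWI motor, Cecr2 a partner of ISWI motors and Arid2 a BAF subunit. For Chd7 they were Peli2 (0.917), Erbb4 (0.916) and Nav2 (0.907), for Chd1 Fxr1 (0.939), Hsf1 (0.923) and Fbxl14 (0.907), and for Chd2 Egfr (0.894), Gramd1b (0.892) and Grk3 (0.810). Chd6 had Spindoc (0.904), Tnrc6b (0.899) and Gabra2 (0.897), Chd8 had Ube2r2 (0.897), Kdm1a (0.870) and R3hdm1 (0.860), and Chd9 had Fam78b (0.765), Exoc6b (0.749) and Ttc17 (0.732). The values were read with no p, since the points share libraries and totals.

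Between the genotypes the members differed little. In the whole library all 9 were higher in the mutant with the interval above 1, which 28.2% of 19414 genes were (29.5% had it below 1), and 0 of 9 were at least 1.5-fold apart, against 2.19% of genes higher and 6.92% lower by that size. Chd4 was at 242.3 CPM in the control and 301.8 in the mutant (log2 ratio 0.32, 0.29 to 0.34). Chd7 was at 356.7 and 439.8 (0.30, 0.28 to 0.32) and Chd5 at 21.38 and 27.13 (0.34, 0.27 to 0.42). These 3 lay above 91.0% to 92.9% of genes in their ratio. The log2 ratios of Chd6 (0.18), Chd8 (0.12), Chd2 (0.11), Chd1 (0.06), Chd3 (0.06) and Chd9 (0.06) were smaller. They lay above 61.8% (Chd3) to 80.5% (Chd6) of genes. The median over the 9 members was 0.12 and that over all genes -0.01.

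A whole library mixes classes whose numbers of cells differed between the genotypes. For Chd7 the log2 ratio was 0.30 in the whole library, and its median over the 14 classes was 0.145. As a mean over single cells the whole-library value was 0.10. That mean weighs each cell alike and still mixes the classes in their differing numbers. Premigratory granule neurons, where Chd7 was highest, numbered 523 (control) and 733 (mutant), and astroglia, where it was low, 840 and 555; the part of this in the whole-library ratio was not tested. By class, Chd7 had its interval above 1 in 8 of 14 classes. Of the 4173 genes counted in every class, 17.3% had it above 1 in at least 7. The log2 ratio of Chd7 was 0.21 in dividing granule progenitors, 0.20 in premigratory neurons, 0.26 in astroglia and 0.44 in ependymal cells. The medians over all genes in these classes were 0.06, 0.05, 0.07 and 0.01, and Chd7 lay above 76.2%, 71.8%, 78.4% and 92.1% of genes. Its log2 ratio was 0.05 in later granule neurons, 0.06 in Purkinje cells and -0.08 in the oligodendrocyte lineage.

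Of the members, Chd4 had the interval above 1 in the most classes. Its ratio was above 1 in all 14 classes, which was so for 6.40% of the 4173 genes counted in every class, and its interval was above 1 in 10 of 14, which 6.04% of those genes had in at least 10. The log2 ratio was 0.35 in dividing granule progenitors (309.7 and 394.3 CPM), 0.31 in astroglia (222.9 and 277.1), 0.31 in glutamatergic nuclear or midbrain neurons (198.5 and 245.4) and 0.26 in Purkinje cells, and 0.03 in later granule neurons, with a median of 0.21. In Purkinje cells with at most 5% mitochondrial UMIs it was -0.07, on 79 and 64 cells. Chd6 was also above 1 in all 14 classes, at a median of 0.185, with the interval above 1 in 7, which 17.3% of genes had in at least 7.

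The ratio moved with gene length, and the members are mostly long genes. In the whole library the median log2 ratio was -0.09 over genes of up to 10 kb, -0.01 from 10 to 50 kb, 0.05 from 50 to 150 kb and 0.07 above 150 kb, and the interval was above 1 for 15%, 26.3%, 43.6% and 49.5% of them. In premigratory granule neurons the medians ran from -0.15 to 0.17, whereas in Purkinje cells they were -0.02, 0.03, 0.04 and -0.03. Malat1, a nuclear RNA, was at 10200 CPM in the control library and 11400 in the mutant, and mitochondrial UMIs were 3.87% and 3.40% of the total. Chd4, at 34.6 kb, is one of the shorter members. The part of these library differences in the ratios of the members was not tested.

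**Figure D4:**
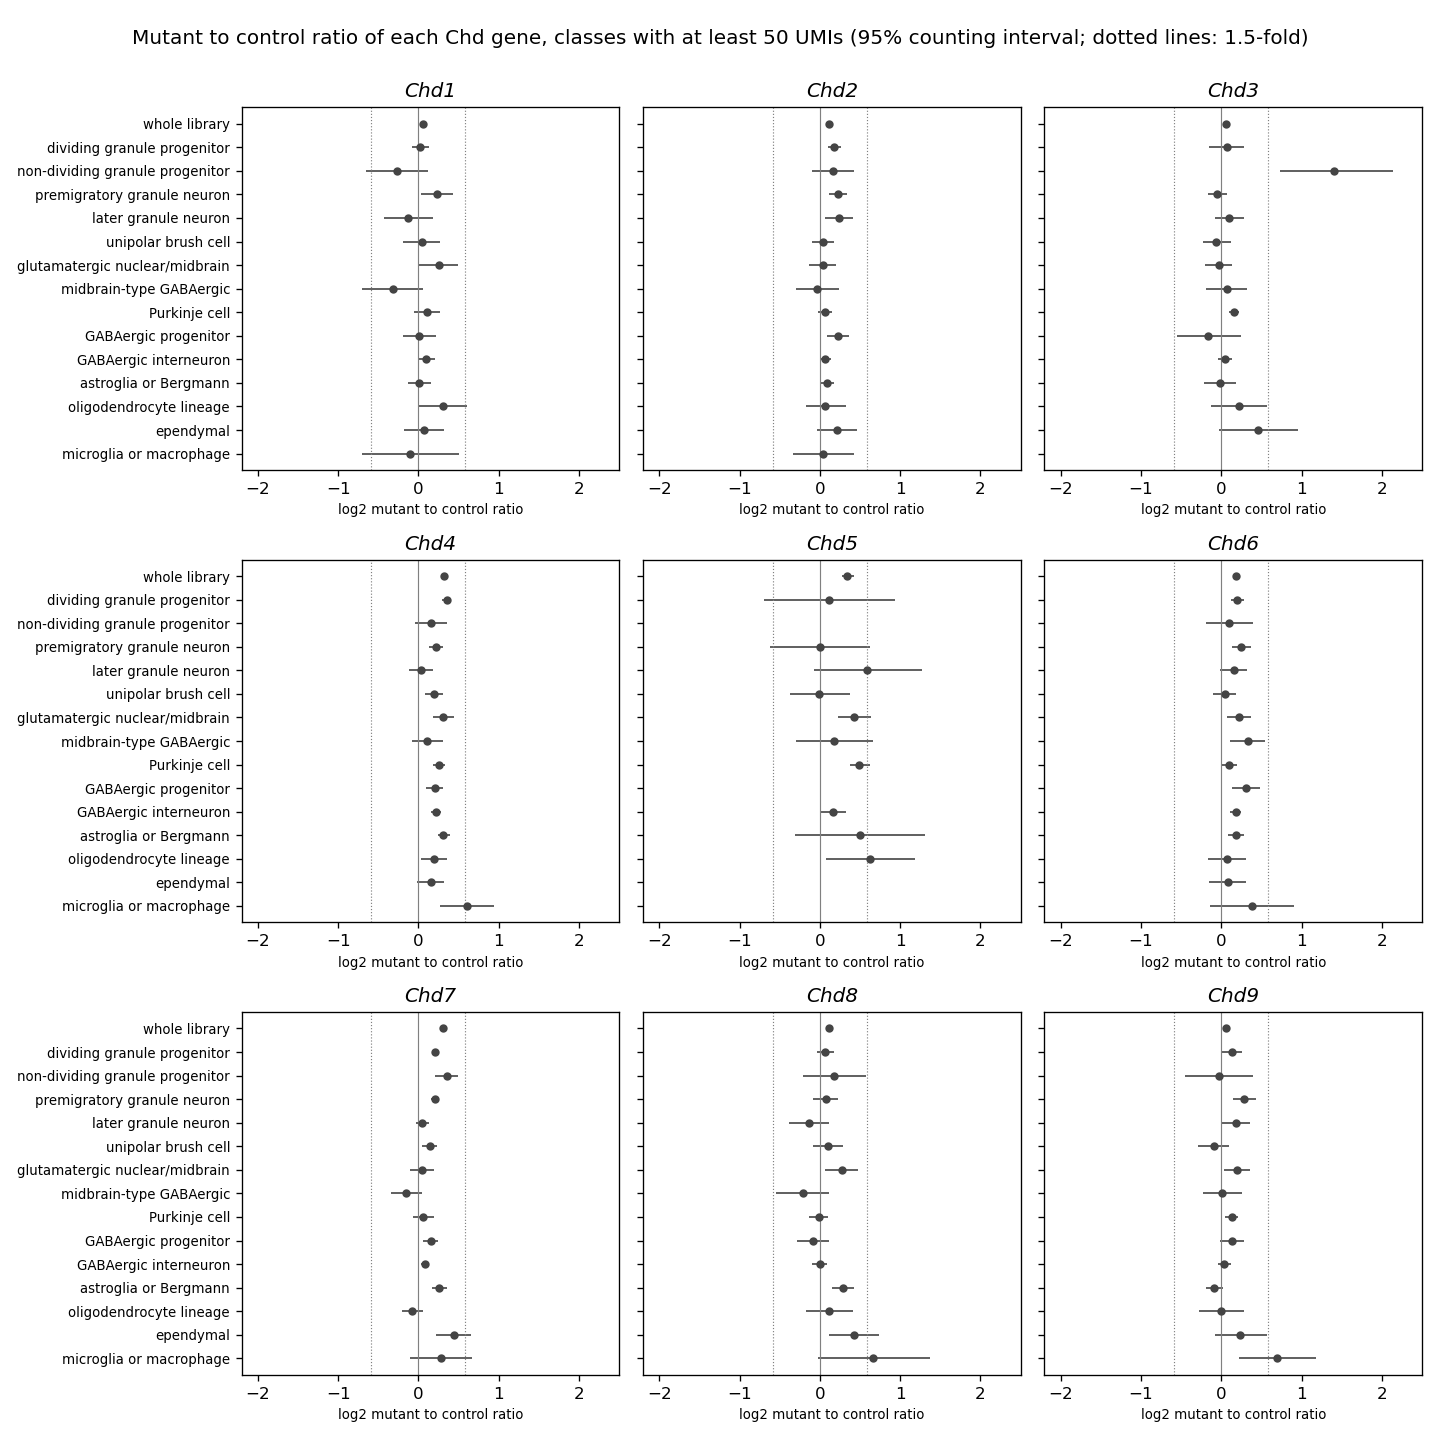
Log2 ratio of mutant to control for each Chd gene in the whole library and in each class with at least 50 UMIs, with 95% counting intervals and dotted lines at 1.5-fold. Chd4 and Chd6 lie to the right of 0 in all classes drawn. The points beyond 1.5-fold are Chd3 in non-dividing granule progenitors, on 23 and 86 UMIs, and members in other classes. Those are Chd5 in later granule neurons and the oligodendrocyte lineage, and Chd4, Chd8 and Chd9 in microglia or macrophages.

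In single classes few members passed 1.5-fold. Chd3 in non-dividing granule progenitors went from 21.07 CPM in the control to 55.95 in the mutant, on 23 and 86 UMIs (log2 ratio 1.41), in a class where 10.3% of genes were higher by that size and 3.99% lower; of 8 counted members 1 was higher and 0 lower. Genes of granule neurons were higher there too: Grin2b was 47.6 and 200 CPM, Cntn2 35.7 and 72.2, Neurod1 243 and 500 and Reln 617 and 1020. In clusters named by the same markers, where this class held 442 and 485 cells, the log2 ratio of Chd3 was -0.22. Chd5 was 1.54-fold higher in the oligodendrocyte lineage (44 and 85 UMIs; 5.28% of genes were higher by 1.5-fold) and 1.51-fold in later granule neurons (31 and 56 UMIs; 4.07% of genes), where its interval reached below 1. In microglia or macrophages, the smallest class, 3 of 7 counted members, Chd4, Chd8 and Chd9, were higher by that size (13.0% of genes were), and 0 of 7 were lower (4.92% of genes were). Chd8 had 28 and 56 UMIs there, and its interval reached below 1. The members with too few UMIs to be counted there, Chd3 (16 and 10) and Chd5 (7 and 0), were lower in the mutant library.

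Chd5 had its interval above 1 in Purkinje cells, at 50.05 and 70.43 CPM (log2 ratio 0.49, 0.37 to 0.62; 17.4% of genes had it above 1 there), and in glutamatergic nuclear or midbrain neurons, at 72.52 and 97.77 (0.43, 0.22 to 0.64; 15.5% of genes). These are the 2 classes with the highest Chd5 level. In the glutamatergic class 61.3% of control and 83.3% of mutant cells had female expression, and 24.7% and 5.38% male. In interneurons Chd5 was at 34.19 and 38.46 CPM (0.17, 0.02 to 0.32; 18.8% of genes), and in male cells alone the log2 ratio was -0.11. Over whole libraries Chd5 had a log2 ratio of 0.48 in female and 0.19 in male cells, and Chd7 of 0.25 and 0.37. The part of the sexes in these values was not tested.

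The other remodelling genes were read in the same way, beside all genes, of which 28.2% had the interval above 1, 29.5% below and 2.19% were at least 1.5-fold higher, with a median log2 ratio of -0.01. The lists were not matched to all genes by number of UMIs, on which the counts of intervals depend. Of the BAF subunits 23 of 28 had the interval above 1 and 1 below, and 1 passed 1.5-fold, with a median log2 ratio of 0.15. Its highest members were Brd7 (48.3 and 75.8 CPM, 0.65) and Dpf3 (60.5 and 81.1, 0.42), and its lowest Actl6a (87.4 and 84.2, -0.05) and Dpf2 (37.4 and 36.0, -0.05). Of 14 counted NuRD partners 9 were above and 0 below, at a median of 0.17, from Hdac2 (164 and 205, 0.33) and Mbd3 (58.2 and 68.7, 0.24) to Rbbp7 (131 and 129, -0.03) and Hdac1 (47.2 and 45.6, -0.05). Rbbp7 and Hdac1 thus had ratios below 1, but neither had its interval below 1.
In the ISWI list 8 of 11 were above and 1 below, at a median of 0.09. Smarca5, the ISWI motor that most resembled Chd4 over classes, was the extreme of all lists at 142 and 236 CPM (0.73), followed by Baz1b (74.3 and 99.0, 0.41), with Pole3 at 0.02 and Chrac1 at -0.15. Other SNF2-type ATPases had 11 of 14 above and 0 below at a median of 0.10, from Rad54l2 (0.24) and Ercc6 (0.21) to Chd1l (-0.08) and Ercc6l (-0.08). The INO80, SRCAP and EP400 family had 5 of 17 above and 5 below at a median of 0.02, with Actr5 (0.55) and Ino80b (0.30) highest and Ruvbl1 (-0.15) and Dmap1 (-0.19) lowest, so that its counts and median were near those of all genes.
In the trithorax-type core 5 of 12 were above and 3 below, also at a median of 0.02, from Rbbp5 (0.28) and Kmt2c (0.11) to Men1 (-0.12) and Kmt2d (-0.18). Of 7 genes linked to Chd7 in neural cells, 4 were above and 1 below at a median of 0.32. Top2b, a topoisomerase that works with Chd7 on long neuronal genes, was at 207 and 282 CPM (0.45) and Reln at 370 and 484 (0.39), while Otx2 was at -0.12 and Fgf8, with 63 UMIs in each library, at -0.14. Reln and Otx2 are also markers of gates, and the part of the numbers of gated cells in their whole-library values was not tested.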

How the data were processed

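Per the labels, lobules III-IV were dissociated with papain and carried through 10x Genomics 3′ v3.1 chemistry. The submitters' processing notes name Cell Ranger 7.2, bcl2fastq 2.20.0.4222 and the mm10 build. The deposited matrices held raw counts of UMIs, whole numbers per gene and barcode. The annotation release and the treatment of intronic reads are not given in the sources used here. Intronic counting would add reads of unspliced RNA to long members. The genotype label, Cxcr4+/1013, was used, although the protocol wording gives Cxcr4+/-.

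Kept barcodes had 500 or more genes and up to 10% mitochondrial UMIs, with a median of 12101 and 13557.5 UMIs per cell. A cell entered 1 of 17 classes when it had a UMI of a set number of fixed markers. Among the classes outside the granule lineage, a cell that met several gates went to the one with the largest share of its list, if that led by 0.1. Granule classes were taken from the cells left, so the granule neuron list was not weighed against the others: unipolar brush cells and dividing granule progenitors had a median of 8 of its 12 markers. Of 12386 such cells 13.1% had the smallest number required. Dividing cells had at least 5 of 10 cell cycle markers and non-dividing ones at most 1. Doublets were left out of the gates only where cells met 2 gates without that lead (175 control, 119 mutant), and removal by Scrublet score was an alternative. The clusters used as another alternative were made after that removal, so the 2 settings are not independent. UMIs were summed per class and library and scaled to 1000000 (CPM). Levels carry exact Poisson intervals, ratios conditional binomial intervals and shares exact Clopper-Pearson intervals, all at 95%. Genes with at least 50 UMIs over the compared sums were counted. No test was run, since each genotype had 1 library and cells are not replicates.

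The named genes were all 9 members, the 2 highest and 2 lowest ratios of each list, and the 3 genes of highest Pearson r with each member among those with at least 500 UMIs, without markers, mitochondrial, ribosomal, haemoglobin, sex-linked and predicted genes. Genes named at a step of differentiation beyond this rule were chosen after their values were seen. The members and lists were chosen with earlier results of these data known. Alternatives were edgeR 4.0.16 TMM factors, DESeq2 1.42.0 size factors, a total without mitochondrial, ribosomal protein and haemoglobin genes, means of per-cell values, stricter cells, doublets removed, 1 sex, gates with 1 more marker, clusters (Leiden, scanpy 1.11.5) and other UMI minimums. Positions and sequences came from GENCODE M21.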

Additional observations from a re-analysis of the deposited data

How the results depend on the processing

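No paired analysis was possible because each genotype had 1 library. With the TMM factors and with the size factors of DESeq2, all 9 whole-library log2 ratios of mutant to control moved by less than their counting intervals. Without mitochondrial, ribosomal protein and haemoglobin genes in the total, Chd2 was at 0.08, Chd4 at 0.29 and Chd7 at 0.28. With at least 1000 genes and at most 5% mitochondrial UMIs, Chd4 was at 0.29 and Chd7 at 0.26. As a mean of per-cell CPM, Chd9 turned to -0.11, and the others were 0.0 (Chd1), 0.02 (Chd2), 0.02 (Chd3), 0.36 (Chd4), 0.17 (Chd5), 0.05 (Chd6), 0.10 (Chd7) and 0.07 (Chd8). In female cells the values that moved were 0.13 (Chd1), 0.01 (Chd3), 0.35 (Chd4), 0.48 (Chd5), 0.23 (Chd6), 0.25 (Chd7) and 0.10 (Chd9), and in male cells 0.0 (Chd1), 0.15 (Chd2), 0.13 (Chd3), 0.27 (Chd4), 0.19 (Chd5), 0.37 (Chd7) and 0.07 (Chd8). Ratios within classes changed sign in clusters for Chd3 in non-dividing granule progenitors (-0.22) and Chd7 in unipolar brush cells (-0.07). They did so with the 5% limit for Chd4 (-0.07), Chd6 (-0.05) and Chd9 (-0.20) in Purkinje cells, and with per-cell means for Chd2 in astroglia (-0.01). In male cells they did so for Chd8 (-0.03) and Chd9 (-0.11) in glutamatergic nuclear or midbrain neurons, on only 92 control and 20 mutant cells. Chd9 in Purkinje cells (-0.02) and Chd5 in interneurons (-0.11) also changed sign in male cells, and Chd7 in interneurons (-0.03) in female cells. Of 54 log2 folds between classes, 24 moved in size beyond their counting interval in clusters, 11 with the 5% limit, 8 with doublets removed, 5 with 1 more marker and 2 with per-cell means. Of 84 shares of cells with a UMI, 69 moved when cells were thinned to 2000 in place of 5000 UMIs. The log2 fold of Chd4 from dividing progenitors to premigratory neurons was 0.01 in control clusters. With the 5% limit the log2 fold of Purkinje cells over later granule neurons was 0.11 for Chd2 and 0.04 for Chd9 in the control and 0.11 for Chd1 in the mutant. The cause was not tested in any of these. Counting limits Chd5 most, with 23 and 33 UMIs in dividing granule progenitors.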
